A study of Homo sapiens with 22 samples.

Results

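RAD21 occupancy was compared between 1 DMSO library and 1 library taken after 24 h of dTAGV-1 in clone NIPBL-A2, an hTERT RPE-1 derivative. The regions described are the 39713 RAD21 peaks of the DMSO library and the 28589 RAD21 peaks of the 24 h library, 68302 of the 341123 peaks in the 12 peak lists of the study. A DMSO peak was called retained when it shared at least 1 bp with a 24 h peak and lost when it shared none. A 24 h peak with no overlapping DMSO peak was called new.

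The study asked how NIPBL shapes the association of cohesin with chromatin. hTERT RPE-1 cells are a human line from retinal pigment epithelium, made immortal with telomerase. In both groups the cells carried mCherry-P2A-FKBP12(F36V)-NIPBL, were cycling without synchronisation, and came from a single clone, so that all clone A2 values describe this clone. FKBP12(F36V) is a degron domain, and dTAGV-1 is a small molecule that brings a protein carrying it to the VHL ubiquitin ligase for degradation. The DMSO group was kept in solvent for 24 h and the treated group in dTAGV-1 for 24 h. Both chromatins carried about 10% of NIH/3T3 mouse chromatin as a spike-in, which was not used here. NIPBL protein was not measured in the files used here, so the extent of its removal in these libraries is not shown.

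Cohesin is a ring-shaped complex that holds and folds DNA, and RAD21 is the kleisin subunit that closes the ring. NIPBL stimulates the cohesin ATPase and drives loop extrusion, in which the complex reels DNA until it meets a barrier. CTCF bound to its motif is the main barrier, PDS5 proteins and WAPL regulate cohesin residence and release, and STAG1 and STAG2 are alternative accessory subunits.

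The promoters below are shown because they lie under the 3 RAD21 peaks of highest enrichment at gene starts among lost peaks and the 3 among retained peaks. The lost ones also differ among themselves in base composition. Each is 300 bases long, from 250 bases before to 50 after a start, from RefSeq on GRCh38.p14, written 5′ to 3′ on the strand of the gene. OXCT1 encodes a mitochondrial enzyme of ketone body use and CLUL1 a clusterin-like protein, and CDK2AP1 encodes a binding partner of cyclin-dependent kinase 2. MAP4K5 encodes a kinase of the MAP kinase cascade and KCNH1 a voltage-gated potassium channel. Capitals mark TAGNGGG, a part of the CTCF motif, on either strand.
OXCT1, lost, chr5:41843608-41843907, minus strand: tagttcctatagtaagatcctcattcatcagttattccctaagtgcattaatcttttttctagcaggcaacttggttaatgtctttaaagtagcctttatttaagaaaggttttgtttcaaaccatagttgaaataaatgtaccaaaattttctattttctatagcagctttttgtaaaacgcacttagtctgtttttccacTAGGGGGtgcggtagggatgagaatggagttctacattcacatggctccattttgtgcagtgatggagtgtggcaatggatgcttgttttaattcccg
CLUL1, lost, chr18:616448-616747, plus strand: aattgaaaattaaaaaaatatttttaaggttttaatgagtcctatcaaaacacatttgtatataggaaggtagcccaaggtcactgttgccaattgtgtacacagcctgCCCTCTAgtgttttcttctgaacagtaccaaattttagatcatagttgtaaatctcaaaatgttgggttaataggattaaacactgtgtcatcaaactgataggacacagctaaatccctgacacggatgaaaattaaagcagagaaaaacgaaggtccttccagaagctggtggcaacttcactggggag
CDK2AP1, lost, chr12:123271202-123271501, minus strand: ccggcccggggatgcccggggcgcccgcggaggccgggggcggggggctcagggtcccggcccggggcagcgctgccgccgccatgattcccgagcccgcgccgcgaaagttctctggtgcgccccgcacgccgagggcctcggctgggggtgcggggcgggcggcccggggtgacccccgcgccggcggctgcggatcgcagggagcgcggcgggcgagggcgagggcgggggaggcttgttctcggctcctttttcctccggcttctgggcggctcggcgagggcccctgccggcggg
WDR38, retained, chr9:124853210-124853509, plus strand: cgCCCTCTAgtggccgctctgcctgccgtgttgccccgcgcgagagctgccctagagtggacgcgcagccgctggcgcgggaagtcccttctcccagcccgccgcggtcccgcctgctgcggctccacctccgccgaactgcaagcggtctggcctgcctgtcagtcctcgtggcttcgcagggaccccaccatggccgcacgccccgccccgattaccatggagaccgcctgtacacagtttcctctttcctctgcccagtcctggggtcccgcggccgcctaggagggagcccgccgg
MAP4K5, retained, chr14:50532520-50532819, minus strand: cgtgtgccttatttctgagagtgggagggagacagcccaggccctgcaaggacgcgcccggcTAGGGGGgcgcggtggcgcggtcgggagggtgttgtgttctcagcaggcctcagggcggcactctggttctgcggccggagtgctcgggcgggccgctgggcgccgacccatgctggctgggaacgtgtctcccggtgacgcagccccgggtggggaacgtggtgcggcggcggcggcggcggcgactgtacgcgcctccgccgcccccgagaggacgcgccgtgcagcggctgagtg
KCNH1, retained, chr1:211134099-211134398, minus strand: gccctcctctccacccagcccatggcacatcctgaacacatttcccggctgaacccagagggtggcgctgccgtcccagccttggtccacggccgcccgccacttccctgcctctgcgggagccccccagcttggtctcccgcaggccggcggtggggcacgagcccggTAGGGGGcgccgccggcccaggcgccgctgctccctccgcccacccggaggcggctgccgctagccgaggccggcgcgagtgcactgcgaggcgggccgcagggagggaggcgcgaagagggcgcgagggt

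The lost peaks at OXCT1 and CLUL1 covered promoters of 36.3% and 37.0% G and C, whereas the CDK2AP1 promoter had 81.7%. The retained promoters of WDR38, MAP4K5 and KCNH1 had 71.7%, 74.0% and 76.0%. These examples do not stand for their classes. The median was 68.0% both in the 2440 windows under lost peaks only and in the 2315 under retained peaks only. OXCT1 and CLUL1 lay below the 10th percentile of the lost windows, 55.7%. TAGNGGG occurred in 10.7% of all 22132 promoter windows in the table, in 12.9% of windows under a lost peak that also lay under a CTCF peak, and in 12.4% of the corresponding retained windows. It was found in 5 of the 6 promoters printed and not in that of CDK2AP1, nor in those of CSNK1A1, COMTD1 and MAT2B, which are named later and not printed. The motif was chosen after these sequences were seen. A match is a run of letters and not evidence of binding.

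Library differences that touch the results are given first. Read totals were not in the files used here. The background pileup is the lowest local background among the called peaks of a list, in fragments over a base. It was recovered from the deposited fold and −log10 p. Its value was 1.87 in the DMSO library and 2.83 in the 24 h library, so the list with fewer peaks had the higher value. It is not an average outside peaks and does not show which library was noisier. By default MACS2 calls no peak narrower than the fragment length it estimates, so the narrowest peak of a list can reflect that length. It was 283 bp in the DMSO list and 344 bp in the 24 h list, against a range of 239 to 353 bp over all 12 lists. With 1 library per group, the values below have no replicate check and no p-value is given. Intervals are 95% Wilson intervals for shares and 95% Newcombe intervals for differences, and cover counting error only.

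Of the DMSO peaks, 14290 were lost, which is 36.0% (interval 35.5% to 36.5%), and 25423 were retained. Of the 24 h peaks, 3092 were new, which is 10.8% (10.5% to 11.2%). The excess of lost over new sites follows from the lengths of the lists. When the DMSO list was shortened to its 28589 peaks of highest −log10 p, the length of the 24 h list, 20.3% of its peaks were lost and 19.99% of 24 h peaks were new, shares that equal lengths make alike. Among DMSO peaks that were also in the DMSO list of clone NIPBL-D7, the second degron clone, 7971 of 31980 were lost, or 24.9% (24.5% to 25.4%). Among 24 h peaks that were also in the clone D7 24 h list, 897 of 23409 were new, or 3.83%. Few peaks sat near the overlap rule. Only 4 retained peaks were overlapped by 50 bp or less, with a median fold of 3.91, and 14 lost peaks had a 24 h peak within 50 bp, with a median fold of 4.71. The median lost peak lay 22986 bp from the nearest 24 h peak.

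Retained peaks kept their position and, on average, their width. The median overlap was 616 bp, the median shift of the summit was 16 bp, and 1332 retained peaks, 5.24%, had a summit shift of over 200 bp. The ratio of the 24 h width to the DMSO width had a median of 0.974, with 80% of peaks between 0.648 and 1.36.

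Lost peaks were weaker and narrower in DMSO than retained ones. Fold enrichment, the authors' ratio of the summit over its local background within a list, had a median of 6.31 in lost peaks and 21.1 in retained peaks, with interquartile ranges of 4.69 to 9.85 and 11.3 to 37.6 that did not overlap. Median widths were 463 bp and 737 bp. Ranked by DMSO fold into 10 equal groups, the share lost was 85.1%, 74.9%, 61.7%, 47.9%, 33.6%, 23.5%, 15.7%, 9.75%, 6.14% and 1.54% from the weakest to the strongest. The intervals of neighbouring groups did not overlap. By width the share lost went from 75.9% in the narrowest group to 10.7% in the ninth, and was 17.1% in the widest, whose median fold of 31.1 was below the 43.3 of the ninth.

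CTCF divided the classes. A CTCF peak of wild-type cells overlapped 95.3% of retained peaks (95.02% to 95.55%), 69.2% of lost peaks (68.4% to 69.9%) and 55.0% of new peaks (53.2% to 56.7%). Seen from the DMSO list, 78.6% of the 5604 CTCF-free peaks were lost, against 29.0% of the 34109 CTCF-overlapping peaks, a difference of 49.7 percentage points (48.5 to 50.8). The 2 kinds of peak differed in strength, and within groups of equal DMSO fold the difference was 6.41 points, averaged over the groups with the weights of the CTCF-free peaks. In the weakest group 87.4% of CTCF-free and 80.7% of CTCF-overlapping peaks were lost. In the fourth group the order was the other way, at 43.7% and 48.2%, with intervals that overlapped. Restricted to peaks also in the clone D7 DMSO list, the difference was 51.8 points and 7.98 within fold groups. With lists of equal length it was 22.1 points.

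The share lost also fell with the strength of the CTCF peak, here without grouping by DMSO fold. Among RAD21 peaks over the weakest 10% of CTCF peaks by CTCF fold, 67.7% were lost, and over the strongest 10%, 8.61% were lost. The share fell at each of the 9 steps between them. The median CTCF fold was 20.7 under lost peaks, 49.6 under retained peaks and 8.07 under new peaks. Lost and retained peaks differed little in it where RAD21 was weak. The medians were 10.97 and 11.03 in DMSO fold groups 1 to 3, with 1 the weakest. They were 27.9 and 34.2 in groups 4 to 7, and 44.6 and 69.4 in groups 8 to 10.

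**Figure D1:**
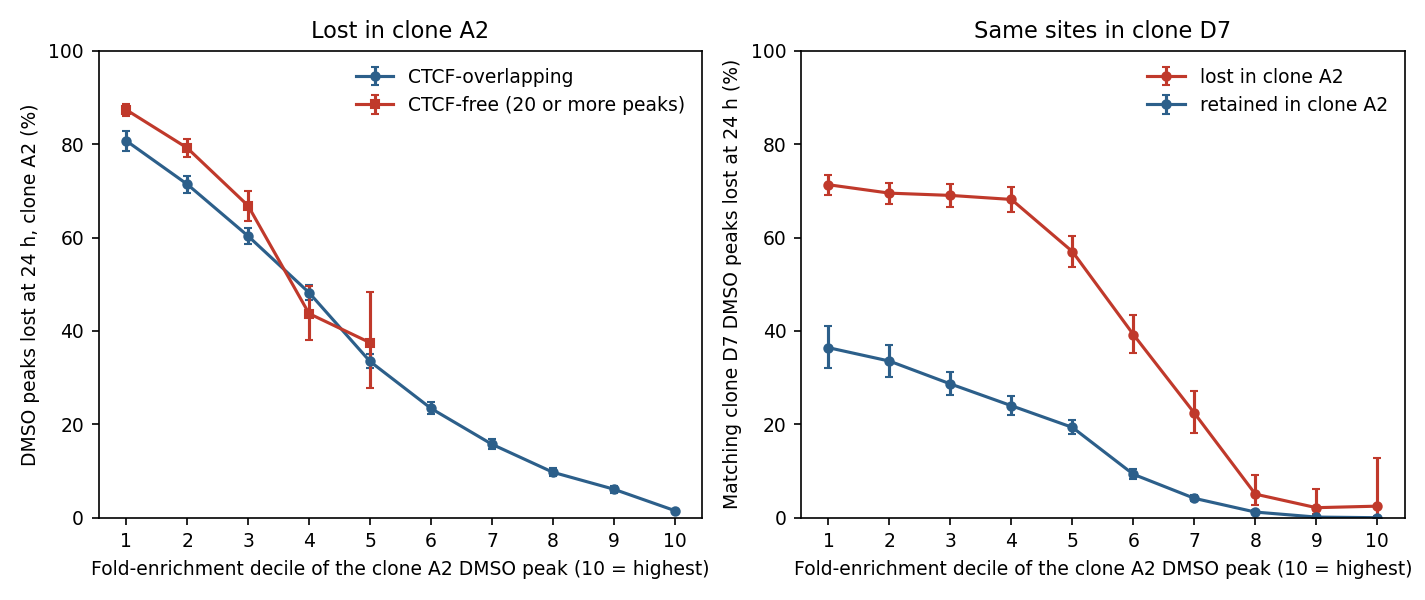
Left, share of clone A2 DMSO RAD21 peaks lost at 24 h (y axis, percent) by fold decile of the peak (x axis), for CTCF-overlapping and CTCF-free peaks, the latter where a decile holds 20 or more. Right, share of the matching clone D7 DMSO peaks lost at 24 h in clone D7, for sites lost and retained in clone A2. Bars are 95% Wilson intervals. On the left the CTCF-overlapping peaks go from 80.7% to 1.54% and the CTCF-free peaks lie close to them, and the lost sites on the right lie above the retained ones in each decile.

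Cohesin partner lists, taken from other cells of the study, overlapped retained peaks more often than lost ones. STAG1 peaks of untreated clone D7 overlapped 79.0% of retained peaks, 32.3% of lost peaks and 340 of the 3092 new peaks, and STAG2 peaks overlapped 65.5%, 23.2% and 11.4% of the 3 classes. PDS5A peaks of clone D7 overlapped 63.6%, 29.4% and 7.54%. WAPL peaks of wild-type cells overlapped 10.2% of retained peaks, 43 of the 14290 lost peaks and 0 of the 3092 new peaks, which allows a share of up to 0.124%. The 230 peaks obtained with an HA antibody in clone A2, whose peak names call the target HA-NIPBL, touched 189 retained, 27 lost and 1 new peak. Within fold groups, peaks without STAG1 were lost more often than those with it by 19.5 points, and the corresponding values were 11.8 points for STAG2, 8.58 for PDS5A and 16.4 for WAPL. In the clone D7 DMSO subset these became 10.1, 14.8, 0.577 and 10.1 points. The values for STAG1, PDS5A and WAPL thus moved by over 1.5 times with the choice of sites. They are averages over fold groups that differed, with the weights of the peaks without the partner. WAPL overlapped only 2 lost and 1 retained peak in groups 1 to 3, so its values rest in part on very few peaks. In groups 1 to 3, the weakest, PDS5A overlapped 29.2% of lost and 28.4% of retained peaks. In groups 8 to 10 STAG2 overlapped 95.8% and 93.3%. In the other strata of these 2 lists, and for STAG1 in groups 1 to 3, 4 to 7 and 8 to 10, lost peaks had the lower share.

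**Figure D2:**
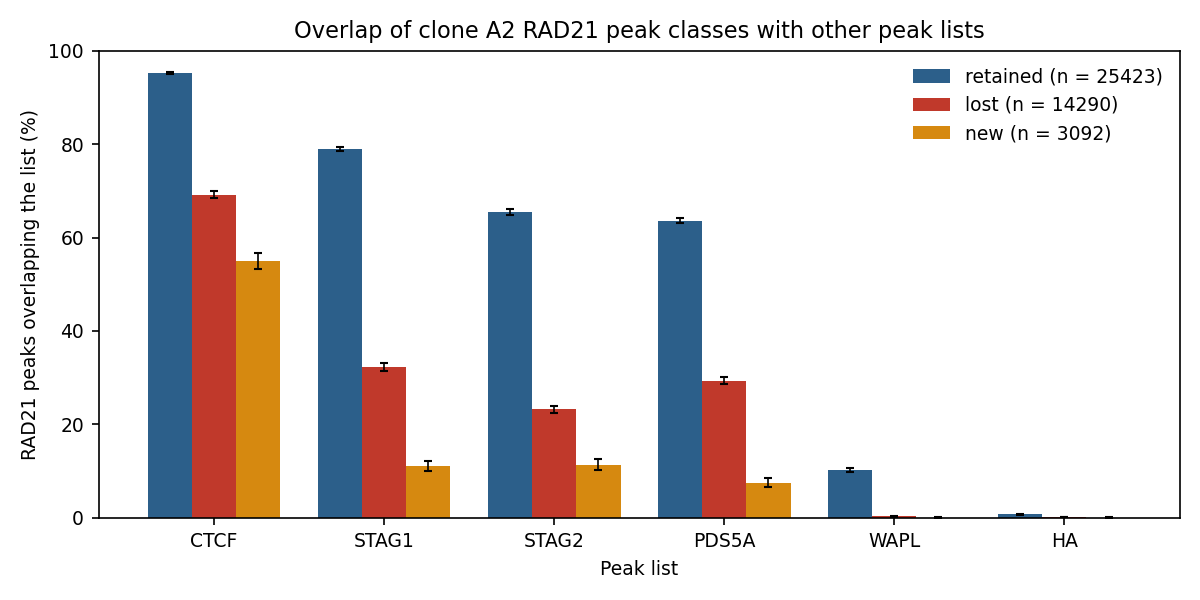
Share of clone A2 RAD21 peaks of each class (y axis, percent) that overlap the CTCF, STAG1, STAG2, PDS5A, WAPL and HA peak lists (x axis). Bars start at 0 and error bars are 95% Wilson intervals. Retained peaks have the highest share in every list, from 95.3% for CTCF to 0.743% for HA.

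A small group of lost peaks was strong in DMSO. In the 3 highest fold groups, with a DMSO fold of 24.2 or more, 692 of 11914 peaks were lost, or 5.81%. Of these, 691 overlapped a CTCF peak, with a median CTCF fold of 44.6, and 5 of 660 on chromosomes with annotated starts lay at a gene start. The 8 of highest fold were spread over the genome. The strongest, of fold 82.4, lay at chr12:104876845-104877760 in SLC41A2, a magnesium transporter gene. Fold was 75.9 at chr7:123635291-123636361 in ASB15, 20098 bp upstream of a start of LMOD2, and 73.9 at chr1:79496962-79497764, where the nearest start was that of ADGRL4, 490648 bp away. A peak of fold 71.5 at chr11:100575184-100577116 lay upstream of ARHGAP42, and one of fold 66.9 at chr3:71586168-71587163 lay 2996 bp upstream of a start of FOXP1, a forkhead transcription factor gene. The other 3 lay in RALGAPA2, in COL25A1 and at a distance of 333778 bp from a start of FSTL5, with folds of 65.8, 64.6 and 62.9.

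These 8 sites had a peak in the clone A2 4 h list, in the clone D7 24 h list, in the CTCF list and in the STAG2 list, and none in the PDS5A list. Their own-list fold at 24 h in clone D7 was between 28.9 and 77.0. The same holds for most of the 692. At 4 h in clone A2 97.98% were present, in clone D7 at 24 h 97.98%, in the STAG2 list 95.8% and in the CTCF list 99.9%. In the clone D7 DMSO list 54.2% were present, in the clone D7 4 h list 38.9%, in the STAG1 list 19.1% and in the PDS5A list 6.79%. The 11222 retained peaks of the same fold groups were present at 81.4% to 99.97% in each of these lists. The lists that held 54.2% or less of the strong lost sites have narrowest peaks of 336 to 353 bp, and untreated clone D7 is among them. Those that held 95.8% or more have narrowest peaks of 262 to 322 bp. The 24 h list of clone A2 has one of 344 bp. The WAPL and HA lists, with the narrowest peaks of all, at 256 and 239 bp, do not follow this order. They held 2667 and 230 peaks in all, and contained 34 and 1 of the strong lost sites and 22.0% and 0.998% of the strong retained ones. The part of this library difference in the losses was not tested.

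**Figure D3:**
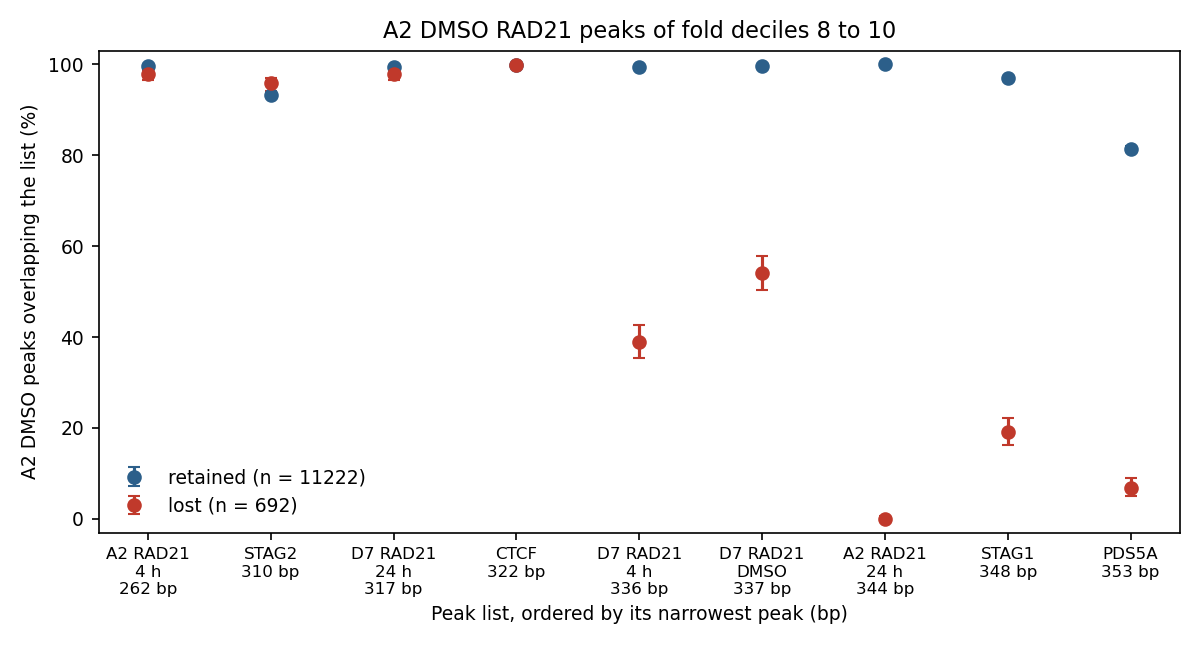
Share of clone A2 DMSO RAD21 peaks of fold deciles 8 to 10 that overlap each of 9 peak lists (y axis, percent), with lists ordered by the width of their narrowest peak (x axis, bp). Points are lost and retained peaks and bars are 95% Wilson intervals. The short WAPL and HA lists are not plotted. The clone A2 24 h list defines the classes, so its points are fixed at 0% for lost and 100% for retained peaks. In the other lists retained peaks lie at 81.4% or above. Lost peaks there go from 95.8% or above in the 4 lists on the left to 54.2% or below on the right.

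The lists also differed in the base composition of the promoters they covered, measured over promoters under CTCF peaks. From promoters with up to 40% G and C to those with over 80%, the share under a peak went from 17.6% to 78.0% in the PDS5A list and from 27.0% to 73.0% in the STAG1 list. It went from 39.2% to 20.6% in the clone A2 4 h list and from 33.8% to 15.6% in the STAG2 list. In the clone A2 DMSO list it went from 55.4% to 73.8%, and in the clone A2 24 h list from 33.8% to 43.3%, with the lowest share, 25.9%, between 60% and 70%. Among these promoters that lay under a clone A2 DMSO peak, the share whose peak was lost was taken by bin. It was 43.9% (29.9% to 59.0%) up to 40% G and C, from 41 promoters. Between 40% and 50% it was 23.7% (17.3% to 31.5%), from 135 promoters. In the 4 bins above it was between 38.5% and 43.7%, and the 40% to 50% bin lay below each of the 3 bins from 50% to 80% beyond their intervals. A peak can lie over several promoters, so these are not counts of separate peaks.

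Part of the losses recurred in the other clone. Clone D7 carries mGreenLantern-P2A-FKBP12(F36V)-NIPBL, was treated in the same way, and shares no library with clone A2. It lost 31.2% of its DMSO peaks at 24 h. Its narrowest peak was 337 bp in DMSO and 317 bp at 24 h, a change opposite in direction to that in clone A2. The clone D7 DMSO list held 55.8% of the 14290 lost and 94.4% of the 25423 retained clone A2 peaks, and the others could not be followed there. Of sites in both DMSO lists, those lost in clone A2 were lost in clone D7 in 61.1% of cases (4872 of 7971). Those retained in clone A2 were lost there in 8.79% (2111 of 24009). The difference was 52.3 points (51.2 to 53.5), and 35.2 points within groups of equal clone A2 fold. Fold in clone D7 was not matched. CTCF-overlapping sites gave 49.8 points and CTCF-free sites 34.1 points.

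The recurrence was highest among weak sites. In the weakest fold group 71.3% of the sites lost in clone A2 were also lost in clone D7, against 36.4% of those retained, and in the fourth group 68.2% against 24.0%. In the eighth group the values were 5.08% and 1.23%, and in the tenth 1 of 40 sites and 1 of 3909. Over the 3 highest groups, 14 of 375 sites lost in clone A2 and present in the clone D7 DMSO list were lost in clone D7, or 3.73% (2.24% to 6.17%). Of all 692 strong losses of clone A2, 97.98% had a clone D7 peak at 24 h. In clone D7 DMSO 54.2% had one, and the others could not be classed there as lost or kept.

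Over all peaks, gene starts lost RAD21 more often than other sites, but the order was the other way among stronger peaks. Without chromosome 8, for which no starts were used, 36.0% of DMSO peaks were lost and 10.7% of 24 h peaks were new. A summit lay within 1 kb of a protein-coding gene start in 4681 DMSO peaks, of which 57.1% were lost, against 33.0% of the 33179 other peaks, a difference of 24.1 points (22.6 to 25.6). Peaks at gene starts were weak, with a median fold of 6.25 within 0.25 kb and 6.39 from there to 1 kb, against 15.1 at 1 to 10 kb. Within fold groups the difference was 2.07 points, averaged with the weights of the gene-start peaks, and its sign changed with fold. In the weakest group 89.7% of gene-start and 83.2% of other peaks were lost. From the fourth group up gene-start peaks had the lower share, at 43.75% against 48.1% in the fourth and 0.575% against 10.3% in the eighth. The intervals were apart in the eighth and ninth groups and overlapped in the others of these. Among CTCF-overlapping peaks the gene-start difference was 18.7 points and 0.728 within fold groups, and among CTCF-free peaks 6.72 points and 5.75. In the clone D7 DMSO subset it was 29.4 points and 7.01 within fold groups, so the latter moved by over 1.5 times with the choice of sites. With lists of equal length it was 4.66 points. In clone D7, gene-start sites lost in clone A2 were lost in 61.1% of cases and those retained in clone A2 in 8.16%.

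Counted by gene, 4667 genes had a DMSO summit within 1 kb of a start. All such peaks were lost at 2609 of them, or 55.9%, and none at 1888. Strong lost peaks at starts were rare. OXCT1 had a DMSO fold of 50.1 and CLUL1 of 44.3, and both were present in the 4 h list of clone A2 and the 24 h list of clone D7 and absent from the PDS5A list. CDK2AP1, with a fold of 36.4, was present in those lists and also in the PDS5A list, and lay over a weak CTCF peak of fold 3.13 and no STAG2 peak. PITPNM1, a phosphatidylinositol transfer protein gene, had a fold of 34.5 at 902 bp upstream of a start, and ACBD4, an acyl-CoA binding protein gene, 28.0 at 730 bp downstream. Both had peaks in all 3 RAD21 lists of clone D7. The peak at CSNK1A1, the casein kinase 1 alpha gene, had a fold of 24.1 and was the only one of these 6 that was absent from the clone A2 4 h list and the clone D7 24 h list and present in the clone D7 DMSO list.

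Retained peaks at starts were far stronger at the top. The highest DMSO folds were 176 at WDR38, 160 at MAP4K5, 153 at KCNH1 and 148 at COMTD1. All 4 had a peak in every RAD21, CTCF, STAG1, STAG2, PDS5A and WAPL list, with folds in the 24 h list of 107, 130, 53.4 and 67.9 in the same order.

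Away from starts, RAD21 peaks in bodies of protein-coding genes were lost more often than intergenic ones. The shares were 38.3% of 15706 and 28.2% of 17473, a difference of 10.1 points (9.05 to 11.1), of which 7.25 remained within fold groups. In the clone D7 DMSO subset the difference was 8.79 points, and 6.53 within fold groups. For peaks in gene bodies but not at starts, the share lost was 42.3% in genes under 20 kb and between 36.7% and 39.7% in the 5 classes of longer genes. The 4 sites of highest fold among retained CTCF-free peaks included the starts of MED13L, a Mediator kinase module gene, and ZBTB12. The 4 highest lost CTCF-free peaks lay in ZNF746, near TAS2R16, in RYR2 and in CDH4, with folds of 37.8, 16.7, 16.4 and 15.3.

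Of 9278 genes with a DMSO summit in the body, all peaks were lost in 2819, all were retained in 3700, and both occurred in 2759. Among 898 genes with 5 or more, 13 lost all and 79 kept all. NIBAN2 and BCOR, the latter a transcriptional corepressor gene, each lost 8 of 8 peaks, with highest folds of 7.85 and 6.32, and ARHGAP29 lost 6 of 6 with a highest fold of 8.03. In NIBAN2 7 of the 8 had a peak in untreated clone D7 and all 7 were lost there too. In BCOR 6 were present and 5 lost, and in ARHGAP29 4 were present and 4 lost. A pair of neighbouring NIBAN2 peaks shared a clone D7 fold of 4.61 and a pair in ARHGAP29 5.06, so each pair may match a single clone D7 peak. ASCC3, a helicase gene, also lost 6 of 6, with a highest fold of 18.8, and GRIK2, a kainate receptor gene, 5 of 5 with 25.4. None of the peaks of ASCC3 and GRIK2 was in the clone D7 DMSO list. Some of them were in the clone D7 24 h list, with folds there of up to 7.89 in ASCC3 and 13.2 in GRIK2. RSRC1, CNTN5 and EIF3H lost 5 of 5 each with highest folds of 39.4, 30.7 and 26.1. Of their peaks 2, 1 and 3 were in the clone D7 DMSO list, and 0, 0 and 2 were lost there.

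The 8 genes with the most peaks among those that kept all had highest DMSO folds of 21.9 to 103.3. ERC2, which encodes a presynaptic active zone protein, kept 12 of 12, with a highest DMSO fold of 39.9 and 3 new peaks at 24 h. ITPR1, the type 1 inositol trisphosphate receptor, kept 10 of 10, and KCNIP4, a potassium channel interacting protein, 9 of 9. CLNK, SLC25A26, KCNAB1 and LDLRAD3 kept 8 of 8 each and RGS6 7 of 7. Of the peaks of each of these 8 genes, 5 to 11 were found in untreated clone D7 and 0 to 3 of those were lost there.

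Gene lists were read against all protein-coding genes, in which 42.6% of 21161 peaks in the body or at a start were lost, and against the share lost over all DMSO peaks of the same fold groups. Genes of cohesin and its regulators lost 14 of 26 peaks, or 53.8% (35.5% to 71.2%), against 40.7% for their fold groups. NIPBL itself had 4 DMSO peaks and all were lost. The 3 in its body, at chr5:36944644-36945019, chr5:37005933-37006303 and chr5:37043662-37043955, had DMSO folds of 6.27, 9.41 and 5.15, overlapped CTCF peaks and were absent from both the DMSO and the 24 h list of clone D7. SMC3, a core subunit, lost 2 of 2 and STAG1 and STAG2 lost 2 of 3 each. PDS5B, a cohesin-associated regulator, kept 3 of 3, and the peaks at RAD21 and CTCF were retained. In the clone D7 DMSO subset the list lost 7 of 19, or 36.8%, against 31.8% of 16940 peaks over all protein-coding genes.

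YAP, TGF-beta and AP-1 target genes lost 31 of 56 peaks, or 55.4% (42.4% to 67.6%), against 50.3% for their fold groups. In the clone D7 DMSO subset they lost 27 of 51, or 52.9%, against 31.8% over all protein-coding genes. LTBP2, a latent TGF-beta binding protein gene, lost 6 of 7. The retained peak at chr14:74608547-74609855 had a DMSO fold of 107 and a 24 h fold of 63.7, while the 5 lost ones in the body had DMSO folds of 4.49 to 26.2, and each of the 6 was in the clone D7 DMSO list. WWTR1, which encodes the YAP partner TAZ, lost 4 of 8 and gained 2 new peaks, and its 4 lost peaks had folds of 3.98 to 5.90 against 10.2 to 33.1 for the retained ones. TEAD1, their DNA-binding partner, lost 2 of 8, and TGFB2, a ligand, 3 of 4.

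Ribosomal protein genes had DMSO peaks at 23 of 78 genes and lost 17 of 26 peaks, or 65.4% (46.2% to 80.6%), against 55.8% for their fold groups. Of these peaks 17 lay at a start and 13 of those were lost, and the median fold of the list was 6.09. Genes of the cell cycle and the p53 pathway lost 13 of 29, or 44.8%, against 48.9%. CDK6, a kinase of the G1 phase, kept 6 of 6 with DMSO folds of 4.67 to 45.0 and 24 h folds of 4.17 to 26.4, while RB1, the retinoblastoma gene, lost 3 of 3 with folds of 4.21, 14.5 and 4.90. All 6 CDK6 peaks were in the clone D7 DMSO list, and 2 of them were lost there. Extracellular matrix and mesenchymal genes lost 24 of 51, or 47.1%, against 43.0%, and lost 5 of 5 at LOXL2, a lysyl oxidase gene, and 2 of 5 at COL4A2, a basement membrane collagen gene.

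The remaining lists lost between 0 and 45.5% of their peaks. Immediate early genes, of which FOS, JUN, JUNB and CCN1 are also in the YAP, TGF-beta and AP-1 list, lost 10 of 22, and nuclear pore and import genes 7 of 16. Retinal pigment epithelium identity genes lost 5 of 15. In this list MITF, the melanocyte and pigment epithelium transcription factor, lost peaks of fold 3.36 and 2.89 and kept peaks of 31.4, 19.9 and 15.9. Inflammatory signalling genes lost 7 of 23, or 30.4%, against 39.8% for their fold groups. HOX genes, the homeobox clusters, lost 2 of 9, with the peaks at HOXB3, HOXA13 and HOXD13 retained at DMSO folds of 92.4, 55.7 and 27.3. The beta protocadherin cluster had 2 DMSO peaks, at starts of PCDHB13 and PCDHB14, and kept both. Over the full DMSO list, the interval of each gene list other than the ribosomal protein genes held the share of all protein-coding genes. Every interval, that of the ribosomal protein genes included, held the share of its fold groups. No such intervals were taken in the clone D7 DMSO subset.

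**Figure D4:**
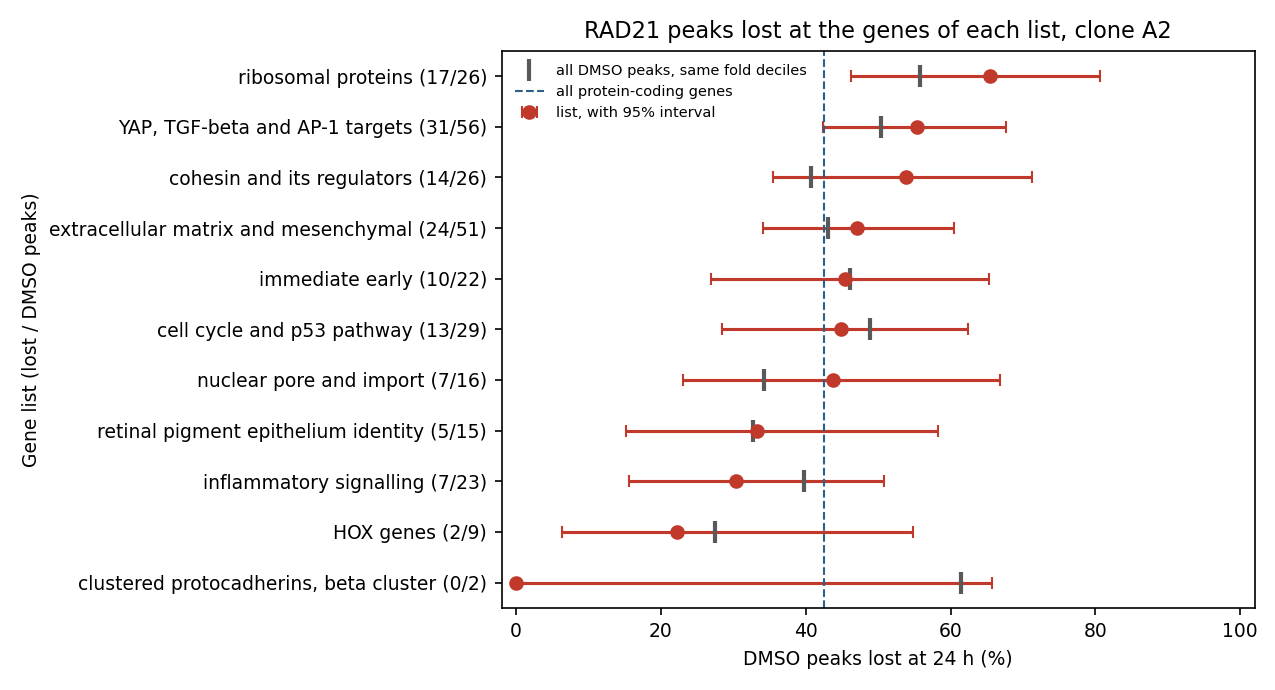
Share of clone A2 DMSO RAD21 peaks lost at 24 h (x axis, percent) at the genes of each list (y axis, with lost and total peaks). Points carry 95% Wilson intervals, grey ticks give the share lost over all DMSO peaks of the same fold deciles, and the dashed line gives all protein-coding genes, 42.6%. Intervals are wide, and the ribosomal protein list is the one whose interval, from 46.2%, lies above the dashed line.

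Lost and retained peaks were interleaved along the chromosomes. Consecutive summits were a median of 34670 bp apart in DMSO and 48736 bp apart at 24 h. Lost peaks had a nearest DMSO neighbour at a median of 13598 bp and retained peaks at 16483 bp. Peaks with a neighbour under 2 kb away were lost in 48.8% of cases, and the share was 36.9% at 2 to 10 kb, 33.7% at 10 to 50 kb and 33.4% at 50 to 200 kb. It was 40.3% (35.6% to 45.2%) for the 402 peaks over 200 kb from a neighbour. The closest peaks were also the weakest, with a median fold of 8.39 against 13.6 to 13.9 in the next 3 classes and 11.5 in the most isolated, and 21.4% of them lay at gene starts. After a lost peak the next peak was lost in 41.1% of cases (40.3% to 41.9%), and after a retained peak in 33.1% (32.5% to 33.7%). CTCF-free lost peaks lay a median of 8853 bp from the nearest CTCF summit, and CTCF-free retained peaks 16845 bp.

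Of 8419 runs of lost peaks, 61.4% were a lone peak, and 36.6% of 8427 retained runs were. The longest lost run held 13 peaks in 80.7 kb at chr17:82212476-82293201, over CCDC57, CSNK1D, a casein kinase gene, and SLC16A3, a lactate transporter gene. The folds had a median of 4.78 and a highest value of 16.9, 7 overlapped CTCF, 4 lay at a gene start and 12 were in the clone D7 DMSO list. The next run held 12 peaks over ZMIZ1 in 119.9 kb, with a median fold of 3.73. A run of 11 over CNTN5 was unlike these, spanning 2855 kb with 8 CTCF-overlapping peaks and folds up to 71.5, and 3 of its peaks were in the clone D7 DMSO list. Another run of 11 lay over NIBAN2, LRSAM1, ZNF79 and RPL12, with 10 in the clone D7 DMSO list, and the fifth, also of 11, lay around NECAB1 and TMEM64 on chromosome 8.

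Retained peaks were the more numerous class, which by itself gives longer runs. The longest retained run held 30 peaks in 938 kb at chrX:130916619-131855034, over ARHGAP36, IGSF1 and OR13H1, and all 30 overlapped CTCF peaks, with a median fold of 9.93. A run of 26 peaks lay over ITPR2, LMNTD1, RASSF8, SSPN and BHLHE41 on chromosome 12, one of 23 over NFASC, PLEKHA6, PIK3C2B and MDM4 on chromosome 1, one of 23 across the olfactory receptor genes with MMP26, STIM1 and TRIM5 on chromosome 11, and one of 22 over PREX1, NCOA3 and SULF2 on chromosome 20. Between 20 and 26 peaks of each of these 5 runs were in the clone D7 DMSO list.

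**Figure D5:**
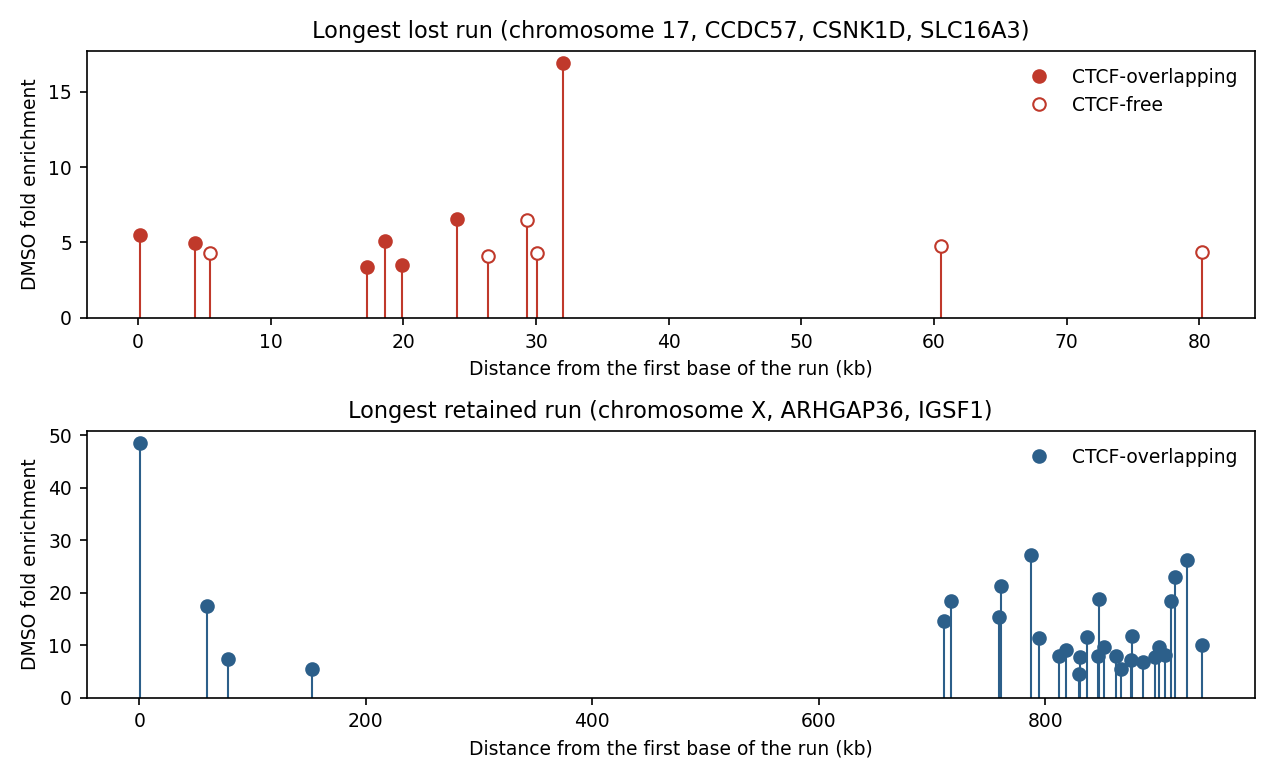
DMSO fold enrichment (y axis) of each RAD21 peak against its distance from the beginning of the run (x axis, kb), for the longest run of lost peaks, 13 peaks at CCDC57, CSNK1D and SLC16A3, and the longest run of retained peaks, 30 peaks at ARHGAP36 and IGSF1. Filled points overlap CTCF and open points do not. The lost run is 80.7 kb long with folds mostly under 7, and the retained run is 938 kb long and without an open point.

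At the scale of 1 Mb, 724 windows held 20 or more DMSO peaks. The share lost had a median of 35.0% and 80% of windows lay between 20% and 52.2%. The window on the X chromosome that holds ARHGAP36 and IGSF1 lost 0 of 27, and those with ITPR2, NFASC, THSD4 and KSR1 lost 1 each, of 26, 22, 21 and 21. The highest shares were 14 of 20 around FARP2 and HDLBP on chromosome 2, 26 of 38 around BAIAP2 and NPLOC4 on chromosome 17, and 14 of 21 in each of the windows with FAM193A, DSE and BCOR. Median folds were 9.75 to 22.1 in the 5 lowest windows and 6.07 to 12.5 in the 5 highest. By chromosome the share lost ranged from 30.9% on X (28.2% to 33.7%) to 40.7% on chromosome 19 (37.9% to 43.5%), and chromosome 15 was at 31.2% and chromosome 16 at 40.3%.

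New peaks were weak and lay farther from gene starts than other 24 h peaks, but about as often in gene bodies, at 42.1% against 45.1%. Their median fold in the 24 h list was 5.00 and their median width 431 bp, against 12.4 and 695 bp for the other 24 h peaks. By 24 h fold, 29.8% of the weakest group and 30.6% of the second were new, 0.560% of the seventh, and 0 of the 8577 peaks in the 3 highest. A new summit lay at a gene start in 3.98% of cases, against 8.43% of the other 24 h peaks, and the median distance to a start was 77310 bp against 40662 bp. New peaks were 16.6% of 24 h peaks over 200 kb from a start and 5.59% of those within 0.25 kb. Chromosome 19, where genes are dense, had the lowest share of new peaks, 2.99%, and chromosome 21 the highest, 14.5%.

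In clone D7, 54.5% of the clone A2 new peaks were in neither the DMSO nor the 24 h list, 15.4% were in the 24 h list alone, 16.5% in the DMSO list alone and 13.6% in both. Of the 897 in the clone D7 24 h list, 477 were new there as well, or 53.2% (49.9% to 56.4%), against 2.71% of the clone A2 24 h peaks that overlapped a DMSO peak. The new peak of highest fold, 18.6, lay at chr11:32071691-32072338, 19034 bp upstream of a start of RCN1, a calcium-binding protein gene, and was also in all 3 RAD21 lists of clone D7. The next, of 17.8, lay in NAV2, a neuron navigator gene, and others lay in SCFD2, RNF150 and PEX5L. The highest without CTCF, of 15.2, lay 292615 bp from a start of SYT1 and was in the clone D7 4 h and 24 h lists and not in the DMSO list. At gene starts the highest were at VIT, TMSB15B, KIAA2012 and MAT2B, with 24 h folds of 9.15, 8.51, 8.30 and 8.19. New summits were most frequent in the bodies of NCKAP5, with 9, and of CLSTN2, LIPA and CAST, with 6 each. CAST, the calpastatin gene, lost 15 of its 22 DMSO peaks, and NCKAP5 lost 3 of 12. Runs of new peaks were short, with 84.1% of 2584 being a lone peak and a longest of 6, on chromosome 12.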

How the data were processed

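The deposited files used were 12 peak lists in narrowPeak layout, 1 per immunoprecipitation. Per the submitters' processing notes, BWA, Picard, SAMtools, bedtools, deepTools and MACS2 were used with hg38 and mm10. Their versions and settings are not given in the sources used here. Peaks were called by the authors per library against its input, per the peak names, which carry a threshold of 0.01, or 0.001 for CTCF. The score column and the signal column, a fold ratio of the summit over the local background, are the authors' deposited values, as are the −log10 p-values and −log10 q-values, and they were used only within a list. The labels' protocols give a size selection and a kit of its own for CTCF.

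Overlaps, intervals and figures were computed in Python 3.11.15 with numpy 2.4.6, pandas 2.3.3, scipy 1.17.1 and matplotlib 3.10.9, and the overlap code was tested on simulated peaks. Fold deciles are 10 equal groups of DMSO peaks. Differences within deciles were averaged with the weights of the group named first. Background pileup was solved from fold and −log10 p under a Poisson model, for peaks with −log10 p under 250, and the lowest value of a list is given. Coordinates count from 1. Gene bodies are those of 19974 protein-coding genes in the RefSeq table of GRCh38.p14, and the 22132 starts, of 15812 genes, come from its promoter table, without chromosome 8. All 317 gene list entries matched by symbol.

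The peak classes, gene lists, naming rule and comparisons were chosen with earlier results of these data known, and TAGNGGG was added after the promoter sequences were seen. Named were the peaks of highest fold per class, in all, without CTCF and at gene starts, the longest runs, the genes with most peaks all lost, all retained or new, the extreme windows of 1 Mb, and up to 4 members of each list with the most DMSO peaks. SMC3, RAD21 and CTCF were named besides after their values were seen. Alternatives changed the overlap rule, the q threshold, list length, chromosome X, the CTCF definition and the gene-start window.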

Additional observations from a re-analysis of the deposited data

How the results depend on the processing

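Of 41 alternative values, 10 lay within the interval of the main value, 31 lay outside it and 0 changed sign. Without chromosome X, all 5 results stayed within their intervals. The share of DMSO peaks lost, 36.0%, was 39.9% with a reciprocal overlap of at least 50%, 39.2% with summits within 200 bp, 29.9% with −log10 q of at least 10 in every list, 24.7% with that threshold on the DMSO list alone, and 20.3% with lists of equal length. The share of 24 h peaks new, 10.8%, was 16.5%, 15.6%, 8.57%, 5.89% and 19.99% under the same settings. Equal lengths make the shares lost and new alike by construction. The difference between CTCF-free and CTCF-overlapping peaks, 49.7 points, was 51.4 with the summit rule, 32.7 with the threshold on the DMSO list alone, 22.1 with equal lengths, 41.9 with the upper 50% of CTCF peaks and 45.4 with CTCF summits within 200 bp. The gene-start difference, 24.1 points, was 31.3 with reciprocal overlap, 26.7 with the summit rule, 15.3 with the threshold in every list, 10.1 with it on the DMSO list alone, 4.66 with equal lengths and 20.9 with a window of 2.5 kb. The clone D7 difference, 52.3 points, was 49.1 with the threshold on the classified lists alone and 46.8 with equal lengths. The causes were not tested.

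The following alternatives were added after seeing the data. With peaks also in the clone D7 list of the same treatment, the 4 results that could be computed were 24.9%, 3.83%, 51.8 points and 29.4 points. Without the 3 highest fold deciles, the share lost was 48.9% and the CTCF, gene-start and clone D7 differences were 37.3, 18.7 and 47.9 points. Each group held 1 library, so no replicate could be left out and the spread between cultures is unknown. No paired analysis was possible because each group held 1 library. A loss is the absence of a called peak, so residual RAD21 below the threshold, and a change in total occupancy, cannot be seen without the spike-in.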
